A study of Homo sapiens with 27 samples.

Results

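The 10 genes described here encode the enzymes that modify lysine and proline in collagen chains and that cross-link the finished fibres. They are the lysyl oxidases LOX, LOXL1, LOXL2, LOXL3 and LOXL4, the lysyl hydroxylases PLOD1, PLOD2 and PLOD3, and the prolyl hydroxylase subunits P4HA1 and P4HA2. They are defined by symbol, with no threshold on a measured value, out of 60534 gene IDs found in every deposited file, of which 19303 were protein coding. RNA-seq and ribosome profiling (Ribo-seq) had been run on IMR90 cells, which are human fetal lung fibroblasts, in 5 states. Ribo-seq sequences the stretches of mRNA that ribosomes shield from RNase, so a gene's footprint count depends on how much of its mRNA is present and on how many ribosomes it carries.

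The 5 states were as follows. Cycling cells were untreated and harvested at 40% to 60% confluency. Quiescent cells had stopped dividing through contact inhibition. Irradiated cells were senescent 10 days after 15 Gy of ionizing radiation. Etoposide cells were senescent after 3 treatments over 10 days with 50 µM etoposide, a topoisomerase II poison that breaks DNA. Thapsigargin cells were cycling cells at the same confluency exposed for 3 h to 25 nM thapsigargin, which blocks the calcium pump of the endoplasmic reticulum. The labels give the genotype WT for the first 4 states and no genotype for the thapsigargin cells, whose medium is described without the antibiotics and antimycotics of the others. Every state had 3 libraries of each type, except cycling RNA-seq with 2 and thapsigargin with 2 of each type. No label says whether replicates came from separate cultures, so p-values measure only the spread between these libraries, which may be technical.

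Collagen chains are hydroxylated on proline and lysine inside the endoplasmic reticulum, before the chains fold into a triple helix. Prolyl hydroxylation stabilises the helix, and lysyl hydroxylation prepares sites for sugar attachment and for stable cross-links. After secretion, lysyl oxidases convert lysines and hydroxylysines of collagen and elastin into reactive aldehydes that join neighbouring molecules. In fibroblasts this set of enzymes is known for its part in wound repair, fibrosis and the stiffening of tissue, and several of its genes, LOX, PLOD2, P4HA1 and P4HA2 among them, are known targets of hypoxia-inducible factors.

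The core letters of the hypoxia response element, ACGTG, were searched on both strands in the 250 bases before the RefSeq start of each gene (build GRCh38.p14; where RefSeq's promoter table lists several starts of a gene, the one farthest upstream). The windows of LOXL3 and P4HA2 lie inside the span RefSeq gives the gene, so a start farther upstream was not searched for these. A window was searched for 9 of the 10 members, and 3 of them held the letters: LOX with 4 matches, PLOD2 with 2 and P4HA1 with 1. Of all 35116 promoter windows of that length, 18.5% held ACGTG. These windows include every listed start of a gene, whereas 1 start was searched for each member. The letters TGATGNAA, an element bound by ATF4 and C/EBP factors, were in 0 of the 9 member windows and in 3.14% of all windows. A match is a description of letters and no evidence of binding, and a window without a match says only that the letters are not in it. Whether the letters have a part in any change of level was not tested. Only the 3 windows with matches are shown. Each is written 5′ to 3′ on the gene's own strand, here the minus strand of the chromosome, with the matches in capitals (CACGT is the same motif on the other strand). All 3 stretches lie immediately upstream of the first exon, at chr5:122078260-122078509 for LOX (gene at chr5:122063195-122078259), chr3:146161185-146161434 for PLOD2 (gene at chr3:146069440-146161184) and chr10:73096867-73097116 for P4HA1 (gene at chr10:73007217-73096866).
LOX: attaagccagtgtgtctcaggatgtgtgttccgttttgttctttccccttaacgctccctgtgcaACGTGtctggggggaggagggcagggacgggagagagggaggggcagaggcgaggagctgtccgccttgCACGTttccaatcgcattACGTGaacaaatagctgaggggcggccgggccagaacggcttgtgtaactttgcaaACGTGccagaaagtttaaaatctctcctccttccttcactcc
PLOD2: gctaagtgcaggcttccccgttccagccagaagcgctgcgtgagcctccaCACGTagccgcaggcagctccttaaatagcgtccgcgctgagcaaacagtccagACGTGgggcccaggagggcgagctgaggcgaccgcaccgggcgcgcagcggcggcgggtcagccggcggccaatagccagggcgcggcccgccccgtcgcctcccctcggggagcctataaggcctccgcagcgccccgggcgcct
P4HA1: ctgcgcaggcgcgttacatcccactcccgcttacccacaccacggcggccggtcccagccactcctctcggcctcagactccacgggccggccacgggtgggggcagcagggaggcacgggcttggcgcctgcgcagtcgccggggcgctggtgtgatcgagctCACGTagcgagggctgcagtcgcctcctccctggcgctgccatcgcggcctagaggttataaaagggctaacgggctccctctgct
In the LOX window the matches lie 185, 116, 98 and 42 bases before the start, in the PLOD2 window 200 and 146 bases before it, and in the P4HA1 window 86 bases before it.

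RNA-seq libraries held 20635503 to 57119841 gene counts and Ribo-seq libraries 1936976 to 19996104. Marker levels are in CPM, counts per 1000000 gene counts of the library after TMM scaling. All 10 fibroblast markers were above 1 CPM in every RNA-seq library, and all 5 blood and immune markers were below it. Of 6 epithelial and 5 endothelial markers, 3 each were below 1 CPM in every library (EPCAM, CDH1 and SFTPC, and PECAM1, CDH5 and KDR). The other epithelial markers were above 1 CPM in every library: KRT8 at 8.36 to 21.2, KRT18 at 46.0 to 85.1 and KRT19 at 1.84 to 88.7 CPM. The summed endothelial markers ranged from 52.8 to 83.1 CPM in etoposide and from 4.58 to 4.90 CPM in thapsigargin cells, with TEK alone between 2.65 and 81.3 CPM over all libraries, and the summed epithelial markers were highest in thapsigargin cells, at 141 to 156 CPM. Summed smooth muscle markers were at 120.0 to 208 CPM, and the part of any of these markers in the results was not tested. Levels below are CPM after TMM scaling, and they are compared for 1 gene across libraries only, since the files give no transcript lengths. A gene was called changed where edgeR's quasi-likelihood test, run over all genes kept, gave an adjusted p under 0.05, and changes are given as differences of log2 levels with their standard errors. The first quiescent library stood apart: it was the lowest quiescent library for 9 of the 10 members in RNA-seq and for all 10 in Ribo-seq. The thapsigargin RNA-seq libraries also stood apart, with 1.35% to 1.40% of reads unmapped against 27.8% to 40.6% in the other RNA-seq libraries. Their titles name them RNA-seq while another of their labels names ribosome protected fragments, and they were taken as RNA-seq by title, on which every thapsigargin value of mRNA and of translation rests.

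LOX (ENSG00000113083) encodes the founding enzyme of its family. Its mRNA was at 343 and 275 CPM in the cycling libraries, at 151, 271 and 220 CPM in the quiescent, at 327, 355 and 341 CPM in the irradiated, at 501, 639 and 546 CPM in the etoposide and at 234 and 244 CPM in the thapsigargin libraries. The etoposide libraries were the highest and overlapped with no other state, the irradiated libraries overlapped with cycling, and the thapsigargin libraries overlapped with quiescent. LOX footprints were at 653, 528 and 724 CPM in cycling, 209.5, 443 and 534 CPM in quiescent, 449, 565 and 511 CPM in irradiated, 1024, 1275 and 1099 CPM in etoposide and 240.4 and 287 CPM in thapsigargin cells. Again the etoposide libraries alone stood clear of the next state, and every other pair of neighbouring states in the order of the means overlapped.

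The other lysyl oxidases had different orders of states. LOXL1 (ENSG00000129038), an enzyme known for its role in elastic fibres, had its highest mRNA in cycling cells, at 113 and 121 CPM, and it was at 64.6, 75.0 and 60.8 CPM in etoposide and at 64.6, 63.2 and 50.3 CPM in irradiated cells. The cycling libraries lay above all others, and the etoposide and irradiated libraries overlapped. LOXL2 (ENSG00000134013), which also cross-links basement membrane collagen, had mRNA means from 54.3 ± 30.4 CPM (SD, n = 2) in thapsigargin to 156 ± 40.2 CPM (SD, n = 3) in etoposide cells, and the etoposide libraries overlapped with cycling. LOXL3 (ENSG00000115318) was scarce in every state, from 0.964 ± 0.696 CPM (SD, n = 2) of mRNA in thapsigargin to 5.48 ± 0.769 CPM (SD, n = 3) in etoposide cells. LOXL4 (ENSG00000138131) had 17.1 and 16.9 CPM of mRNA in cycling and 8.91 and 7.38 CPM in thapsigargin cells, its highest and lowest states. Its 3 irradiated libraries, at 9.22, 10.6 and 9.38 CPM, lay between the thapsigargin and the quiescent libraries without overlap.

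Among the lysyl hydroxylases, PLOD2 (ENSG00000152952), the enzyme for lysines in the end regions of collagen chains, stood out in etoposide cells. Its mRNA was at 104 and 102 CPM in cycling, 45.8, 73.5 and 132 CPM in quiescent, 57.8, 64.5 and 63.5 CPM in irradiated, 271, 282 and 228 CPM in etoposide and 60.0 and 39.5 CPM in thapsigargin cells. No etoposide library overlapped with another state, and the other 4 states formed a chain in which each neighbour in the order of means overlapped. PLOD2 footprints were at 117, 145 and 131 CPM in cycling, 46.9, 122 and 116 CPM in quiescent, 62.6, 75.2 and 71.3 CPM in irradiated, 451, 581 and 459.5 CPM in etoposide and 25.4 and 27.6 CPM in thapsigargin cells. Both the etoposide libraries at the top and the thapsigargin libraries at the bottom were clear of their neighbours.

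PLOD1 (ENSG00000083444), which acts on lysines of the triple helix, had 138 and 147 CPM of mRNA in cycling, 65.8, 114 and 102 CPM in quiescent, 75.2, 92.5 and 67.7 CPM in irradiated, 178, 224 and 206 CPM in etoposide and 54.2 and 75.5 CPM in thapsigargin cells. Its etoposide and cycling libraries each stood clear of the rest, and the 3 lower states overlapped. PLOD3 (ENSG00000106397), which also attaches sugars to hydroxylysine, was the member with another order: its mRNA was highest under thapsigargin, at 60.2 and 72.0 CPM, against 39.4 and 51.5 CPM in cycling and 18.2, 21.7 and 18.7 CPM in irradiated cells. Its footprints were highest in cycling cells, at 228, 224 and 247 CPM, and were at 91.5 and 74.9 CPM under thapsigargin and at 55.2, 73.0 and 59.8 CPM in irradiated cells. The thapsigargin libraries were therefore the top of PLOD3's mRNA range and near the bottom of its footprint range, with overlap only with quiescent footprints.

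The prolyl hydroxylases are tetramers of catalytic alpha subunits, encoded by P4HA1 and P4HA2, with the protein disulfide isomerase P4HB. P4HA1 (ENSG00000122884) had 115 and 127 CPM of mRNA in cycling, 48.5, 86.0 and 125 CPM in quiescent, 69.7, 82.6 and 78.1 CPM in irradiated, 171, 169.5 and 155 CPM in etoposide and 72.5 and 58.8 CPM in thapsigargin cells. Its etoposide libraries lay above all others, and the quiescent libraries spread from below the irradiated range into the cycling range. P4HA2 (ENSG00000072682) was highest in cycling cells, at 79.6 and 81.8 CPM, followed by etoposide at 70.1, 75.6 and 69.2 CPM, without overlap, and its irradiated libraries at 40.6, 47.0 and 41.5 CPM overlapped with thapsigargin at 40.0 and 43.0 CPM. Over the state means of log2 CPM, each gene centred on its own mean over the 5 states, the closest pair of members was PLOD1 and P4HA1, with a root mean square difference of 0.12, and the farthest was LOXL3 and PLOD3, with 1.38.

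**Figure D1:**
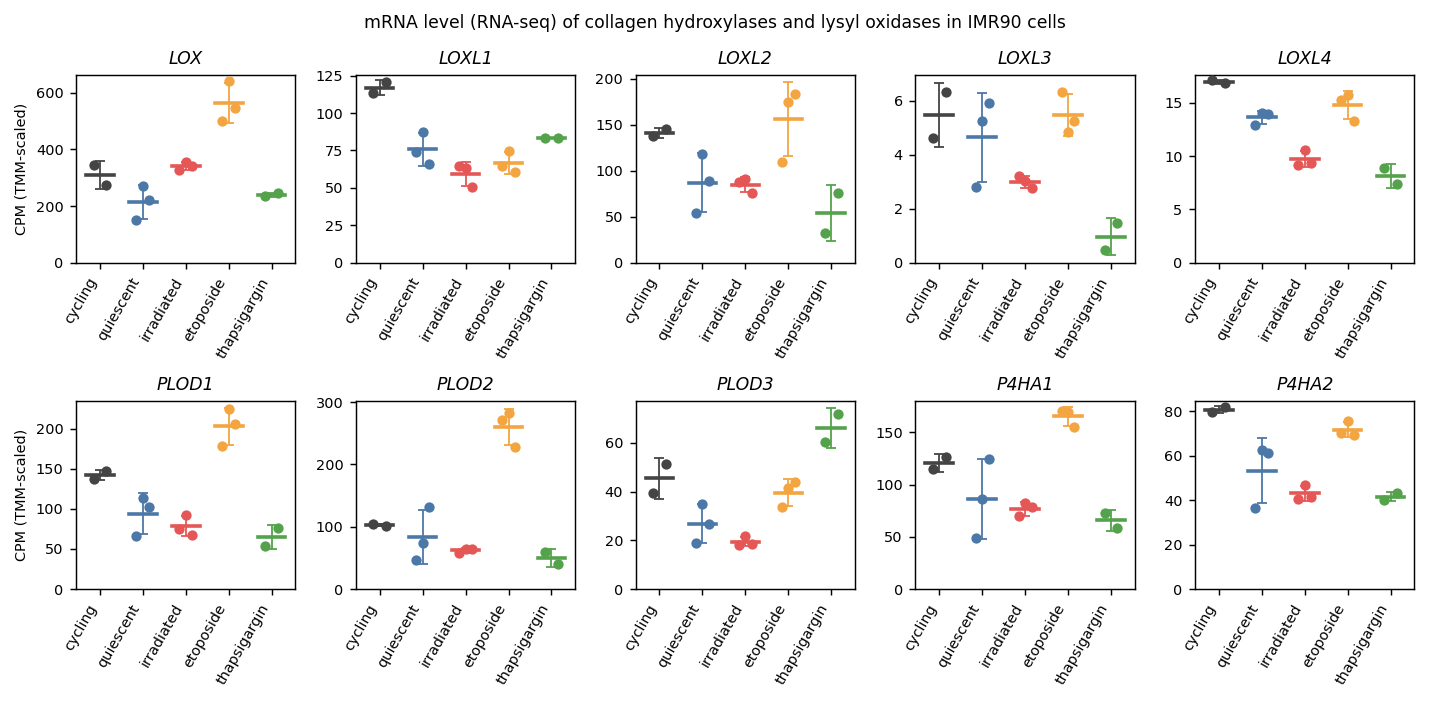
mRNA level of each member in CPM after TMM scaling (linear axis from 0), by state: points are libraries, horizontal lines are means and error bars are SD over 2 or 3 libraries. PLOD2 has its etoposide libraries at 271, 282 and 228 CPM, above every other library, while PLOD3 is highest in the thapsigargin libraries at 60.2 and 72.0 CPM.

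**Figure D2:**
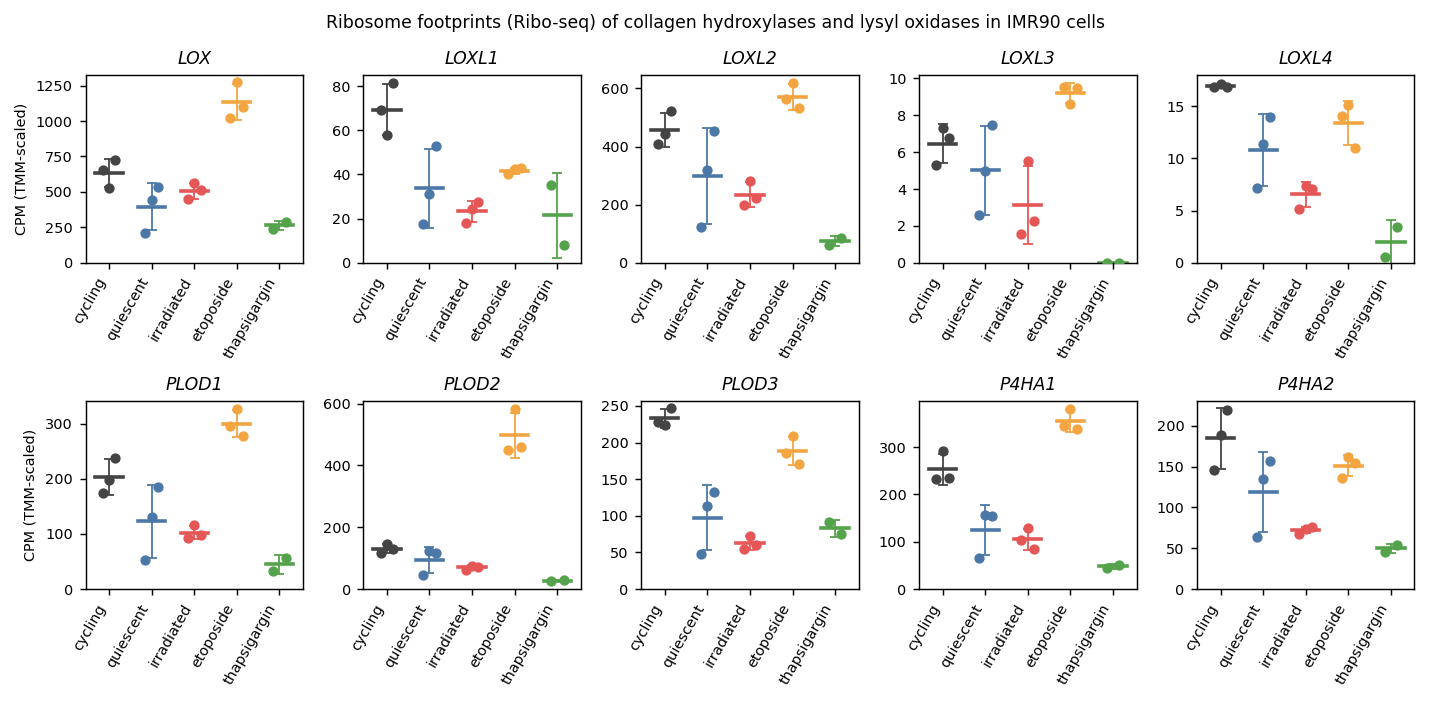
Ribosome footprints of each member in CPM after TMM scaling (linear axis from 0), by state: points are libraries, horizontal lines are means and error bars are SD over 2 or 3 libraries. The mean of the 2 thapsigargin libraries is the lowest of the 5 states for 9 of the 10 members, PLOD3 being lower in irradiated cells, and LOXL3 has 0 footprints in both. For LOX and LOXL1 the thapsigargin libraries overlap with those of the next state.

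The 2 senescent states, reached through radiation or etoposide, were compared with each other. In irradiated cells 7 of the 10 members had less mRNA than in etoposide cells, and 0 had more. The 7 were LOX, LOXL4, all 3 PLOD genes and both P4HA genes. Over all 13308 genes tested, 22.5% were called in this comparison, 12.8% as lower and 9.66% as higher. The members' median log2 fold change was -0.87 beside 0.06 over all genes. Because these are bulk libraries, fewer cells that make a transcript and less of it per cell cannot be told apart.

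Among these 7, PLOD2 had the largest difference between the senescent states: its 3 irradiated libraries lay between 57.8 and 64.5 CPM and its 3 etoposide libraries between 228 and 282 CPM, a log2 difference of -2.07 ± 0.29 (SE; edgeR, Benjamini-Hochberg adjusted p = 0.000352). PLOD1, with no overlap either, had a log2 difference of -1.37 ± 0.19 (edgeR adjusted p = 0.000402). P4HA1 followed at -1.11 ± 0.24 (edgeR adjusted p = 0.00478) and PLOD3 at -1.02 ± 0.20 (edgeR adjusted p = 0.00264). P4HA2 had a log2 difference of -0.73 ± 0.17 (edgeR adjusted p = 0.00618) and LOXL4 of -0.60 ± 0.13 (edgeR adjusted p = 0.00487). LOX, at -0.72 ± 0.17, was called as well (edgeR adjusted p = 0.0094) but not without the second etoposide library, where it was -0.62 ± 0.19 (edgeR adjusted p = 0.0504). LOXL1, LOXL2 and LOXL3 were not called. In other fits all called members were lower: 9 with DESeq2, 9 with only the states compared and 7 without a filter on low counts. RLE size factors, another scaling, and a replicate block each gave 8. LOXL2 had irradiated libraries at 87.2, 91.5 and 76.2 CPM and etoposide libraries at 109.7, 174 and 183 CPM, which did not overlap.

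Footprints of all 10 members, like their mRNA, had log2 fold changes below 0 in irradiated against etoposide cells. In Ribo-seq 9 of 10 members were called lower, and LOXL1 did not pass the test, where 21.2% of 11756 genes were called, 14.7% as lower and 6.52% as higher. Their median log2 fold change was -1.43 beside 0.02 over all genes. PLOD2 footprints, at 62.6 to 75.2 CPM against 451 to 581 CPM, had a log2 difference of -2.84 ± 0.27 (edgeR adjusted p = 4.78e-05). P4HA1 footprints were at 102.6, 128 and 84.3 CPM in irradiated and at 345, 381 and 338 CPM in etoposide cells, a log2 difference of -1.76 ± 0.26 (edgeR adjusted p = 0.000437). LOX, PLOD1, PLOD3 and P4HA2 were also called, at -1.16 ± 0.25, -1.56 ± 0.32, -1.60 ± 0.27 and -1.07 ± 0.25. LOXL2, LOXL3 and LOXL4, at -1.29 ± 0.32, -1.70 ± 0.47 and -1.07 ± 0.32, were called less firmly. In the irradiated libraries LOXL3 rested on 8 to 15 footprint counts and LOXL4 on 20 to 30. LOXL2 was lost without the first irradiated or the second etoposide library (edgeR adjusted p from 0.0542 to 0.0547). LOXL3 was lost without any 1 of these 6 libraries except the second irradiated one (edgeR adjusted p from 0.0599 to 0.130), and LOXL4 without any except the third etoposide one (edgeR adjusted p from 0.0624 to 0.146). Without the first irradiated or the second etoposide library 6 members were called.

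**Figure D3:**
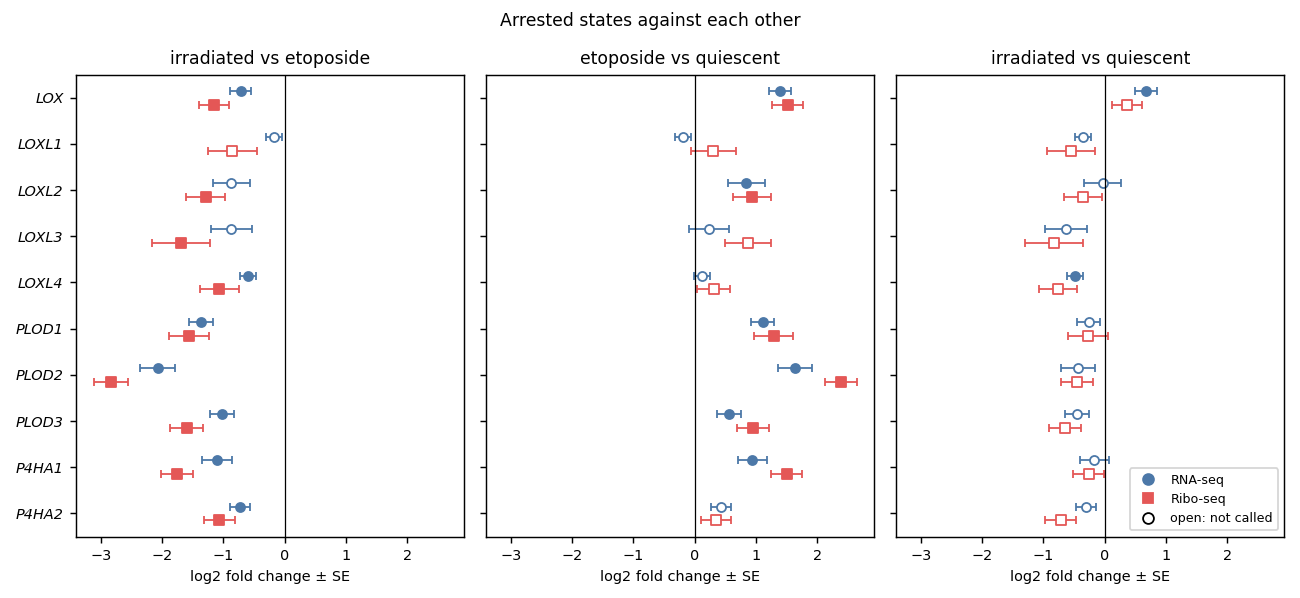
Log2 fold change of each member between the arrested states, with bars for its standard error, for RNA-seq (circles) and Ribo-seq (squares), filled where edgeR's adjusted p is under 0.05. In the panel of irradiated against etoposide cells every value lies below 0, down to -2.84 for PLOD2 footprints, and in the panel of etoposide against quiescent cells LOX, LOXL2, P4HA1 and all 3 PLOD genes are filled above 0.

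Against cycling cells, etoposide cells had more mRNA of PLOD2 and LOX and less of LOXL1, and the other 7 members were not called. Of the genes tested, 34.5% were called, 16.7% as higher and 17.7% as lower, and the members' median log2 fold change was 0.07 beside 0.00 over all genes. PLOD2 mRNA rose by 1.34 ± 0.32 on the log2 scale (edgeR adjusted p = 0.00586) and LOX mRNA by 0.86 ± 0.20 (edgeR adjusted p = 0.00448). Both calls rested on the second cycling library: without it PLOD2 was at 1.32 ± 0.44 (edgeR adjusted p = 0.0505), LOX was at 0.71 ± 0.26 (edgeR adjusted p = 0.0679), and 1 member was called. LOXL1 fell by 0.81 ± 0.14 on the log2 scale (edgeR adjusted p = 0.000771). PLOD1, with etoposide libraries at 178 to 224 CPM above cycling at 138 and 147 CPM, did not pass, with a log2 difference of 0.51 ± 0.22 (edgeR adjusted p = 0.0832). P4HA1 likewise had no overlap and a log2 difference of 0.45 ± 0.27 (edgeR adjusted p = 0.207).

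In footprints the same comparison called PLOD2 and LOX as higher and none as lower, beside 33.6% of all genes called, 17.8% as higher and 15.8% as lower. PLOD2 footprints, at 451 to 581 CPM against 117 to 145 CPM, rose by 1.93 ± 0.26 on the log2 scale (edgeR adjusted p = 5.08e-05). LOX footprints rose by 0.84 ± 0.24 on the log2 scale (edgeR adjusted p = 0.0162). The LOX call was lost without the second cycling library (0.72 ± 0.28, adjusted p = 0.0715), the second etoposide library (0.72 ± 0.29, adjusted p = 0.0945) or the third (0.83 ± 0.30, adjusted p = 0.0596), each leaving 1 member called by edgeR. LOXL1 footprints were at 69.2, 57.8 and 81.3 CPM in cycling and at 40.0, 42.3 and 42.7 CPM in etoposide cells. They did not overlap, and the log2 difference of -0.73 ± 0.37 did not pass (edgeR adjusted p = 0.143). With a fit to the 6 libraries of these 2 states alone, 9 members were called, 5 higher and 4 lower.

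Irradiated cells had less mRNA than cycling cells of LOXL1, LOXL4, PLOD1, PLOD3 and P4HA2, 5 of the 10 members, and more of 0. In this comparison 34.9% of the genes tested were called, 18.7% as lower and 16.1% as higher. The members' median was -0.83 beside 0.03 over all genes. PLOD3 mRNA fell by 1.22 ± 0.22 on the log2 scale (edgeR adjusted p = 0.000753), from 39.4 and 51.5 CPM to between 18.2 and 21.7 CPM. LOXL1 fell by 0.98 ± 0.14 (edgeR adjusted p = 0.000176) and P4HA2 fell by 0.91 ± 0.18 (edgeR adjusted p = 0.0017). PLOD1 fell by 0.86 ± 0.21 (edgeR adjusted p = 0.00657) and LOXL4 fell by 0.81 ± 0.14 (edgeR adjusted p = 0.000736). LOX, whose irradiated libraries at 327 to 355 CPM overlapped with cycling at 275 and 343 CPM, was not called, nor were LOXL2, LOXL3, PLOD2 and P4HA1. The count was 8 in a fit without the thapsigargin libraries, an alternative chosen after the data were seen, and 9 in a fit of these 2 states alone.

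Footprints of 8 members fell after irradiation and those of 0 rose, the members not called being LOX and LOXL3. The background was 40.0% of 11756 genes called, 22.1% as lower and 18.0% as higher, and the members' median was -1.23 beside 0.02 over all genes. PLOD3 footprints fell by 1.90 ± 0.27 on the log2 scale (edgeR adjusted p = 8.81e-05). LOXL1 fell by 1.59 ± 0.40 (edgeR adjusted p = 0.00516) and LOXL4 fell by 1.41 ± 0.31 (edgeR adjusted p = 0.00235). P4HA2 footprints went from 145, 189 and 219 CPM to 67.8, 73.3 and 75.6 CPM and fell by 1.36 ± 0.25 on the log2 scale (edgeR adjusted p = 0.000742). P4HA1 fell by 1.27 ± 0.26 (edgeR adjusted p = 0.0014), and PLOD1, LOXL2 and PLOD2 were called as well, PLOD1 with libraries at 93.2, 115 and 97.3 CPM against 174, 197 and 237 CPM, LOXL2 at -0.97 ± 0.32 and PLOD2 at -0.91 ± 0.26. PLOD1 was lost without the third cycling library or any 1 irradiated library (edgeR adjusted p from 0.0547 to 0.0820), and LOXL2 without the third cycling, the first irradiated or the third irradiated library (edgeR adjusted p from 0.0781 to 0.0965). PLOD2 was lost without the first irradiated library (-0.84, edgeR adjusted p = 0.0569). The count was 5 without that first irradiated library, which was the lowest irradiated library for 9 of the 10 members in Ribo-seq.

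**Figure D4:**
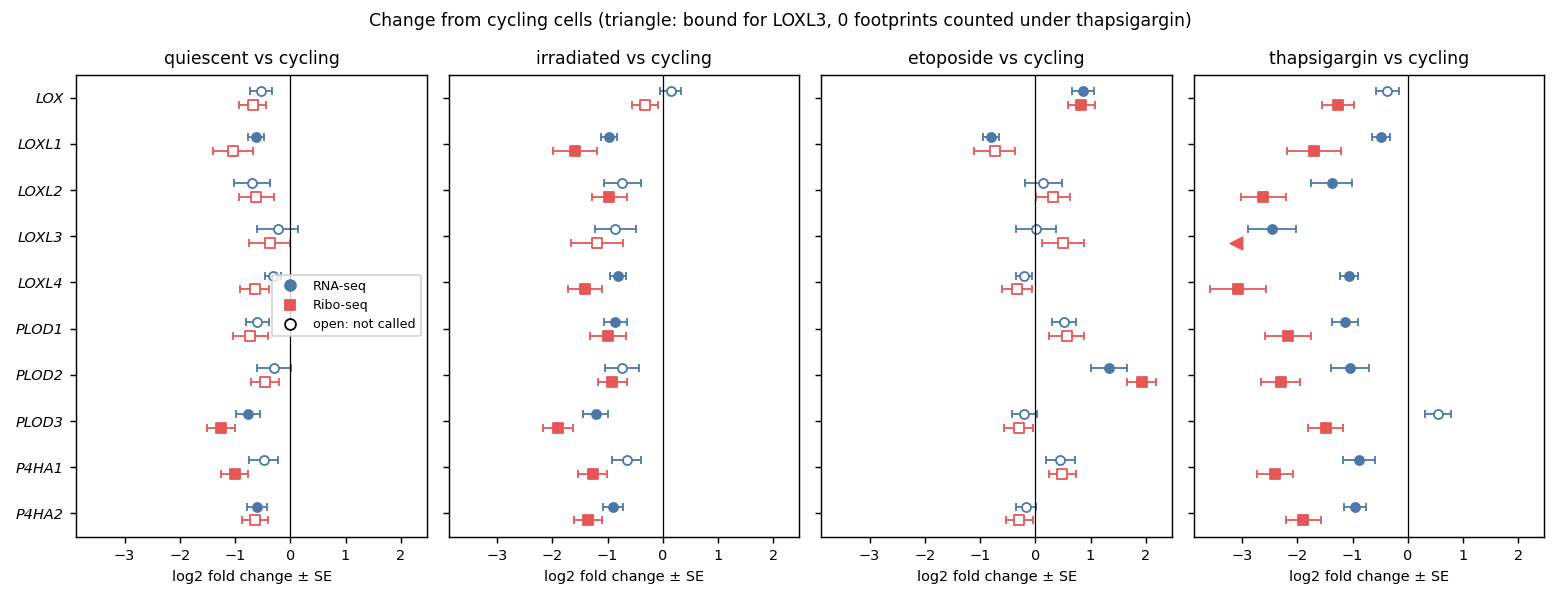
Log2 fold change of each member from cycling cells in the 4 other states, with bars for its standard error, for RNA-seq (circles) and Ribo-seq (squares), filled where edgeR's adjusted p is under 0.05. PLOD2 and LOX are filled above 0 after etoposide, while all 10 footprint values are filled below 0 under thapsigargin, where the triangle marks LOXL3's bound at -3.11.

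In quiescent cells 3 of 10 members had less mRNA than in cycling cells (LOXL1, PLOD3 and P4HA2), where 15.5% of the genes tested were called, 10.4% as lower and 5.18% as higher. LOXL1 mRNA fell by 0.62 ± 0.14 on the log2 scale (edgeR adjusted p = 0.0109), PLOD3 fell by 0.76 ± 0.22 (edgeR adjusted p = 0.0305) and P4HA2 fell by 0.60 ± 0.18 (edgeR adjusted p = 0.0397). The members' median was -0.56 beside 0.02 over all genes. The count was 0 without either cycling library (edgeR adjusted p from 0.0615 to 0.0873 for LOXL1 and from 0.165 to 0.170 for P4HA2), 0 with only these 2 states in the fit, and 5 without the second quiescent library and 2 without the first. PLOD3 was also lost without the first quiescent library (-0.56 ± 0.19, adjusted p = 0.0736) and without the third (-0.76 ± 0.25, adjusted p = 0.0559), by edgeR. PLOD3 footprints fell by 1.25 ± 0.26 (edgeR adjusted p = 0.00324) and P4HA1 footprints fell by 1.01 ± 0.25 (edgeR adjusted p = 0.0101), 2 of 10 members beside 22.6% of genes called, 15.0% as lower and 7.66% as higher. Their quiescent footprints were at 47.4, 114 and 132 CPM for PLOD3 and at 64.6, 157 and 155 CPM for P4HA1, all below the cycling libraries. The footprint count was 8 without the third quiescent library, 4 without the thapsigargin libraries and 0 with only these 2 states in the fit. With the replicate number as a block, it was 6, all lower: LOX, LOXL1, PLOD1 and P4HA2 besides PLOD3 and P4HA1. In this comparison of footprints same-numbered libraries deviated together.

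Set against quiescent cells, etoposide cells had more mRNA of 6 members and less of 0, beside 41.7% of genes called, 21.0% as higher and 20.6% as lower. The 6 were LOX, LOXL2, P4HA1 and the 3 PLOD genes, and the members' median was 0.70 beside -0.02 over all genes. PLOD2 mRNA rose by 1.64 ± 0.28 on the log2 scale (edgeR adjusted p = 0.000483), LOX by 1.39 ± 0.18 (edgeR adjusted p = 4.83e-05), PLOD1 by 1.11 ± 0.19 (edgeR adjusted p = 0.000518) and P4HA1 by 0.94 ± 0.24 (edgeR adjusted p = 0.00636). LOXL2 and PLOD3 rose by 0.84 ± 0.30 and 0.57 ± 0.20 although their libraries overlapped. Both of these calls were lost without the first quiescent, the third quiescent, the second etoposide or the third etoposide library (edgeR adjusted p from 0.0719 to 0.135 for LOXL2 and from 0.0667 to 0.116 for PLOD3). Footprints of LOX, LOXL2, P4HA1 and the 3 PLOD genes rose, beside 35.4% of genes called, 20.4% as higher and 15.0% as lower, with a median of 0.94 beside 0.03 over all genes. PLOD2 footprints rose by 2.38 ± 0.26 (edgeR adjusted p = 1.11e-05), LOX by 1.52 ± 0.25 (edgeR adjusted p = 0.000315) and PLOD1 by 1.29 ± 0.32 (edgeR adjusted p = 0.00539). P4HA1 footprints, at 338 to 381 CPM, lay above the quiescent range of 64.6 to 157 CPM (edgeR adjusted p = 0.00043). LOXL2 footprints rose by 0.93 ± 0.31 and PLOD3 by 0.95 ± 0.26. The LOXL2 call was lost without the second quiescent or any 1 etoposide library (edgeR adjusted p from 0.0632 to 0.130) and the PLOD3 call without the second etoposide library (edgeR adjusted p = 0.0719). The footprint count was 4 without the second etoposide library and 3 with only these 2 states in the fit.

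Irradiated and quiescent cells, both arrested, differed in the mRNA of 2 members, with 18.7% of genes called, 9.00% as higher and 9.71% as lower. LOX was higher in irradiated cells, by 0.67 ± 0.17 on the log2 scale (edgeR adjusted p = 0.0172), and LOXL4 was lower, by -0.49 ± 0.13 (edgeR adjusted p = 0.0201). LOX libraries at 327 to 355 CPM lay above the quiescent range of 151 to 271 CPM. LOX was lost without the second or the third irradiated library (edgeR adjusted p from 0.0511 to 0.0747), and LOXL4 without the first irradiated, the third irradiated or the second quiescent library (edgeR adjusted p from 0.0580 to 0.0790). The count was 6 without the first quiescent library, 3 without the third, 1 without the second quiescent or the first or second irradiated library, and 0 without the third irradiated library. In footprints 0 members were called by edgeR and 0 by DESeq2, where edgeR called 14.0% of genes, 6.53% as higher and 7.49% as lower, and 3 members had an unadjusted p under 0.05. Without the first quiescent Ribo-seq library, the lowest one for all 10 members, 7 were called as lower in irradiated cells.

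Cells exposed to thapsigargin for 3 h had the lowest mean footprint level of the 5 states for 9 of the 10 members, with PLOD3 lower after irradiation. For LOX these libraries overlapped with the quiescent ones. For LOXL1, at 35.1 and 7.89 CPM, they overlapped with the irradiated ones at 18.2 to 27.4 CPM. Beside cycling cells, the mRNA of 8 of 10 members fell and that of 0 rose, where 24.5% of 13308 genes were called, 12.8% as lower and 11.7% as higher. The members' median was -1.01 beside -0.03 over all genes. LOXL3 mRNA, at 4.64 and 6.31 CPM in cycling and 0.472 and 1.46 CPM in thapsigargin cells, fell by 2.46 ± 0.43 on the log2 scale (edgeR adjusted p = 0.00126), the furthest of the 8. LOXL2, with 137 and 145 CPM in cycling and 32.8 and 75.8 CPM in thapsigargin cells, fell by 1.38 ± 0.37 (edgeR adjusted p = 0.0168), and PLOD1 fell by 1.13 ± 0.24 (edgeR adjusted p = 0.00399). LOXL4 fell by 1.06 ± 0.16 (edgeR adjusted p = 0.000406) and P4HA2 fell by 0.96 ± 0.20 (edgeR adjusted p = 0.00423). PLOD2 fell by 1.05 ± 0.34 (edgeR adjusted p = 0.0387), P4HA1 fell by 0.88 ± 0.29 (edgeR adjusted p = 0.0411) and LOXL1 fell by 0.49 ± 0.16 (edgeR adjusted p = 0.0398). LOX and PLOD3 did not pass, with log2 differences of -0.37 ± 0.21 and 0.54 ± 0.24 (edgeR adjusted p = 0.231 and 0.118). With the replicate number as a block, 9 members were called, 8 lower and 1 higher. DESeq2 called 8, and fewer were called with RLE size factors (7). Without a filter on low counts 6 were called, and with only the states compared in the fit 6. The LOXL1 and P4HA1 calls were lost whichever of the 4 libraries was left out (edgeR adjusted p from 0.0891 to 0.181 and from 0.0544 to 0.172). LOXL2 was lost without either cycling or the first thapsigargin library (edgeR adjusted p from 0.0598 to 0.0919), and PLOD2 without either cycling or the second thapsigargin library (edgeR adjusted p from 0.120 to 0.200). The count was 4 without either cycling library and 5 without either thapsigargin library. Treatment, the medium and the share of unmapped reads differed together between these groups and cannot be told apart.

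All 10 members had fewer footprints under thapsigargin, where 44.3% of 11756 genes were called, 26.0% as lower and 18.2% as higher. The members' median log2 fold change was -2.24, and the median over all genes was -0.15, or -0.11 with the other scaling, so these falls are read against a shift of that size. P4HA1 footprints went from 233, 291 and 234 CPM to 44.2 and 51.3 CPM, so that they fell by 2.40 ± 0.33 on the log2 scale (edgeR adjusted p = 7.91e-05). PLOD2 fell by 2.30 ± 0.35 (edgeR adjusted p = 0.000174) and PLOD1 fell by 2.17 ± 0.41 (edgeR adjusted p = 0.000871). P4HA2 fell by 1.89 ± 0.32 (edgeR adjusted p = 0.000334) and PLOD3 fell by 1.48 ± 0.32 (edgeR adjusted p = 0.00203). Among the lysyl oxidases, LOXL2 fell by 2.62 ± 0.41 (edgeR adjusted p = 0.000194) and LOX fell by 1.27 ± 0.29 (edgeR adjusted p = 0.00303). LOXL3 had 53 to 105 footprint counts in the cycling libraries and 0 in both thapsigargin libraries, so its level was at least 8.60-fold lower, taking a floor of 3 counts over the group. With LOXL3 at that bound the median stayed at -2.24. LOXL4 rested on 1 and 7 counts under thapsigargin against 162 to 246 in cycling cells, and fell by 3.08 ± 0.51 (edgeR adjusted p = 0.000311). LOXL1, at 35.1 and 7.89 CPM, fell by 1.70 ± 0.49 (edgeR adjusted p = 0.0126) and was not called without the second thapsigargin library (-0.98 ± 0.52, adjusted p = 0.135), which left 9. The thapsigargin libraries were counted on another gene list than the other Ribo-seq libraries. They had 65.2% to 66.9% of reads mapping to several places against 19.8% to 31.9% in the others. Treatment, medium, gene list and read mapping differed together here and cannot be told apart, and the part of any of them in these falls was not tested.

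The change of footprints beyond that of mRNA was tested as an interaction of library type and state, which is the change in translational efficiency (TE). Under thapsigargin it was called lower for 3 members, PLOD3, LOXL4 and P4HA1, where 20.7% of 11708 genes were called, 12.5% as lower and 8.14% as higher. Treatment went here with another medium and another gene list for footprints. It also went with more footprint reads mapping to several places and fewer unmapped mRNA reads. These cannot be told apart. PLOD3's ratio of mean footprint CPM to mean mRNA CPM was 5.12 in cycling and 1.26 in thapsigargin cells, and its TE fell by 1.99 ± 0.41 on the log2 scale (edgeR adjusted p = 0.00155). For LOXL4 the ratio went from 0.998 to 0.243 and the TE fell by 1.99 ± 0.52 (edgeR adjusted p = 0.00872). For P4HA1 it went from 2.09 to 0.727 and the TE fell by 1.49 ± 0.45 (edgeR adjusted p = 0.0212). All 10 members had an unadjusted p under 0.05 in this test, DESeq2 also called 3, and the members' median was -1.21 beside -0.14 over all genes. Of the 6 measured members that were not called, LOX had the smallest value, -0.87 ± 0.37, and PLOD2 the largest, -1.22 ± 0.51 (edgeR adjusted p = 0.0968 and 0.0915). LOXL3, with 0 footprints, was not called either. PLOD3 was called whichever of the 9 libraries was left out. LOXL4 was not called without the first thapsigargin Ribo-seq library (-1.20 ± 0.51, adjusted p = 0.107), the one with 1 count. P4HA1 was not called without that library (-1.39 ± 0.55, adjusted p = 0.0823), the first cycling RNA-seq library (-1.42 ± 0.52, adjusted p = 0.0711) or the first thapsigargin RNA-seq library (-1.38 ± 0.50, adjusted p = 0.0509).

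In the other 6 comparisons the TE test called 0 members by edgeR and 0 by DESeq2, and 0 had an unadjusted p under 0.05. In those comparisons edgeR called few genes of any kind: 0.00854% for quiescent against cycling and for irradiated against quiescent, 0.0769% for irradiated against cycling (0.0598% as higher, 0.0171% as lower), 0.0683% for etoposide against cycling (0.0342% in each direction), 0.128% for etoposide against quiescent and 0.00% for irradiated against etoposide. PLOD2, whose ratio was 1.27 in cycling and 1.91 in etoposide cells, had a TE difference of 0.55 ± 0.41 between them, with a 95% confidence interval from -0.30 to 1.40. A TE change of PLOD2 of up to that upper limit is therefore within the error of these libraries. With only the states compared in the fit, 2 members were called lower in TE in irradiated than in cycling cells and 4 than in etoposide cells. In the main fit all 10 members had TE values below 0 in both comparisons. Their medians were -0.34 against cycling and -0.37 against etoposide cells, beside 0.08 and 0.06 over all genes. Values below 0 were had by 8 for quiescent against cycling and 8 for irradiated against quiescent cells. For etoposide they were had by 4 against cycling and 2 against quiescent cells.

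**Figure D5:**
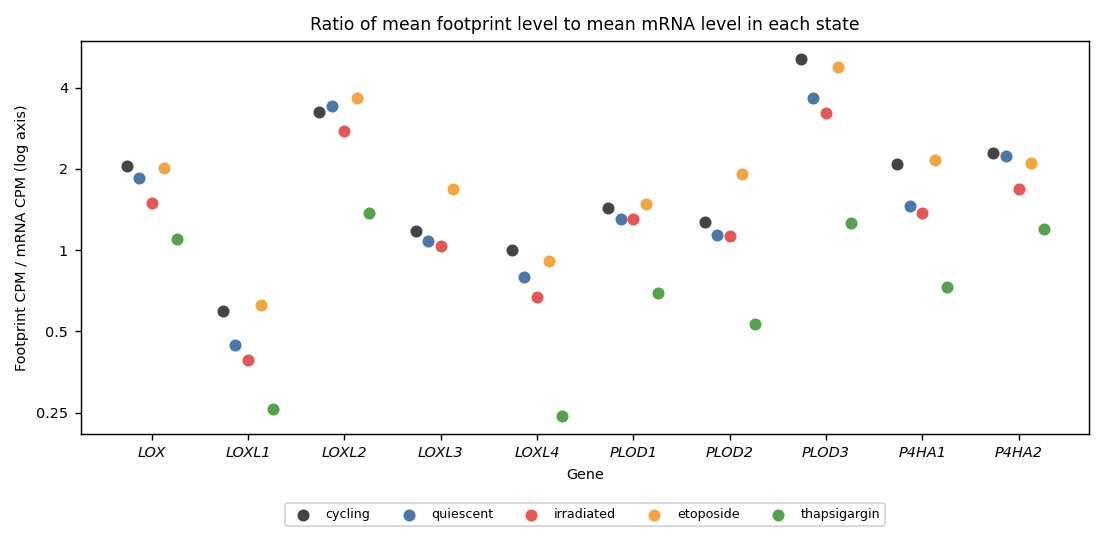
Ratio of mean footprint CPM to mean mRNA CPM for each member in each state, on a log axis, with no error bars because each point is a ratio of 2 state means. The thapsigargin point is the lowest of the plotted states for all 9 members that have one, at 1.26 for PLOD3 against 5.12 in cycling cells, and LOXL3 has no thapsigargin point because its footprint count was 0.

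Other genes of the pathway were read from lists. Of 15 further enzymes and chaperones that act on procollagen in the endoplasmic reticulum, 13 were lower in mRNA in irradiated than in etoposide cells and 0 higher, and 15 of 15 were lower in footprints, beside 12.8% and 14.7% of all genes called lower. Their median log2 fold change in mRNA was -1.06 beside 0.06 over all genes. Beside cycling cells, the mRNA of 10 of them fell after irradiation (18.7% of all genes called lower), that of 9 fell in quiescence (10.4%), and after etoposide 3 rose (16.7% called higher) and 2 fell (17.7% called lower). Under thapsigargin 3 rose and 5 fell in mRNA, beside 11.7% and 12.8% of all genes, and 0 rose and 9 fell in footprints, beside 18.2% and 26.0%. P3H2, a prolyl 3-hydroxylase, was at 89.3 ± 17.7 CPM (SD, n = 3) in etoposide and 11.9 ± 2.39 CPM (SD, n = 3) in quiescent cells, a log2 difference of 2.91 ± 0.17 (edgeR adjusted p = 9.36e-08). P4HA3, the third prolyl hydroxylase alpha subunit, was at 6.87 ± 1.12 CPM (SD, n = 3) in irradiated and 24.6 ± 7.32 CPM (SD, n = 3) in etoposide cells, a log2 difference of -1.84 ± 0.46 (edgeR adjusted p = 0.011). Without the second irradiated library P4HA3 was not called by edgeR (-1.78 ± 0.56, adjusted p = 0.0513). P3H1, another prolyl 3-hydroxylase, fell by 2.02 ± 0.25 after irradiation (edgeR adjusted p = 4.34e-05). TMEM38B, an ion channel of the endoplasmic reticulum, was higher in etoposide than in quiescent cells by 2.10 ± 0.21 (edgeR adjusted p = 6.09e-06).

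Fibrillar collagens and the proteins of elastic fibres are substrates or partners of these enzymes. Of 10 fibrillar collagen and elastic fibre genes, 2 fell in mRNA and 8 in footprints after irradiation, where 18.7% and 22.1% of all genes were called lower, so that the mRNA count is near the background. After etoposide 3 fell in mRNA and 1 in footprints, beside 17.7% and 15.8% of all genes, and 0 rose in any of these. Under thapsigargin 4 fell in mRNA and 8 in footprints, beside 12.8% and 26.0% of all genes, with medians of -0.99 and -2.32 beside -0.03 and -0.15 over all genes. COL3A1, the chain of type III collagen, went from 1229 ± 385 CPM (SD, n = 2) to 196 ± 15.0 CPM (SD, n = 2) of mRNA under thapsigargin, and fell by 2.65 ± 0.41 (edgeR adjusted p = 0.000496), and COL5A2 fell by 2.18 ± 0.33 there (edgeR adjusted p = 0.000443). FN1, encoding fibronectin, fell by 1.43 ± 0.27 (edgeR adjusted p = 0.0022). ELN, encoding elastin, was at 3.72 ± 0.502 CPM (SD, n = 3) in etoposide and at 20.3 ± 11.1 CPM (SD, n = 3) in quiescent cells, a log2 difference of -2.45 ± 0.40 (edgeR adjusted p = 0.000352). Of 7 measured proteases and enhancers of procollagen processing, 5 fell and 1 rose in mRNA after irradiation, beside 18.7% of all genes called lower and 16.1% higher, and 4 fell and 1 rose after etoposide, beside 17.7% and 16.7%. Their medians were -0.72 and -0.74 beside 0.03 and 0.00 over all genes. PCOLCE, an enhancer of procollagen C-proteinase, went from 115 ± 34.1 CPM (SD, n = 2) in cycling to 10.2 ± 2.02 CPM (SD, n = 3) in etoposide cells, where it fell by 3.48 ± 0.25 (edgeR adjusted p = 2.04e-07).

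Among 14 measured hypoxia-inducible genes, 5 rose and 2 fell in mRNA after etoposide, 4 rose and 4 fell after irradiation, and 1 rose and 2 fell under thapsigargin, with medians of 0.37, 0.20 and 0.09 beside 0.00, 0.03 and -0.03 over all genes. Of all genes, 16.7% were called higher and 17.7% lower after etoposide, 16.1% and 18.7% after irradiation, and 11.7% and 12.8% under thapsigargin. ANGPTL4, a secreted regulator of lipid metabolism, rose after etoposide by 3.15 ± 0.32 on the log2 scale (edgeR adjusted p = 6.81e-06). SLC2A1, the glucose transporter, was higher in etoposide than in quiescent cells by 2.14 ± 0.26 (edgeR adjusted p = 3.37e-05). ADM, encoding adrenomedullin, fell by 2.27 ± 0.17 under thapsigargin (edgeR adjusted p = 1.85e-06), and NDRG1 rose after irradiation by 0.96 ± 0.21 (edgeR adjusted p = 0.00295). Among 10 TGF-beta responsive genes, 2 rose and 2 fell in mRNA after etoposide, 1 rose and 3 fell after irradiation, and 1 rose and 2 fell under thapsigargin, with medians of 0.20, -0.28 and 0.14. In either direction 34.5%, 34.9% and 24.5% of all genes were called in these comparisons, so the counts are near the background. CCN2, a matricellular protein, was lower in irradiated than in etoposide cells, by -1.65 ± 0.28 on the log2 scale (edgeR adjusted p = 0.00101). Under thapsigargin TGFBI fell by 2.40 ± 0.16 and SMAD7, an inhibitor of the pathway, rose by 1.96 ± 0.16 (edgeR adjusted p = 8.32e-07 and 3e-06). The 4 comparisons with cycling cells share their cycling libraries, as do those with the quiescent and the etoposide state, so likeness between their values is no independent evidence.

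By state means alone, the genes whose mRNA pattern lay closest to a member's were sought among 13298 other genes, as the root mean square difference of centred log2 CPM over the 5 states. For PLOD2 they were SLC18B1 at 0.13 and QPCT at 0.15. For LOX they were ADAMTS1 at 0.07 and MGAT5 at 0.08, and for PLOD1 they were COL4A2, a basement membrane collagen chain, at 0.10 and ANXA10 at 0.12. With 5 points a gene, such closeness is a description only.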

How the data were processed

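The 13 RNA-seq and 14 Ribo-seq files make 27 libraries. The authors deposited raw counts, one whole number of reads for each gene and strand setting. Per the submitters' processing notes, STAR 2.7.10b, bcl2fastq, DESeq2 1.36.0 and the build hg38 were used. The annotation version is not given in the sources used here. Lysis buffer held cycloheximide, RNA-seq used a stranded TruSeq kit, and Ribo-seq used RNase I digestion, a sucrose cushion, gel selection and rRNA depletion, per the labels' protocols. Reverse-strand counts (column 4) were taken for RNA-seq and forward-strand counts (column 3) for Ribo-seq, and the opposite strand held 3.56% to 10.7%. Rows without a gene stayed out: unmapped reads (1.35% to 40.6% of reads), reads mapping to several places (9.43% to 66.9%) and reads outside genes (1.45% to 12.8% of unique reads).

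There were 62703 gene IDs in the RNA-seq and thapsigargin Ribo-seq files and 60664 in the remaining files. The 60534 shared IDs, with 99.6% or more of the counts of each library, were used. Where both lists draw a gene differently, its counts can differ for that reason. Of them 60461 had a symbol and 40521 a biotype from RefSeq (GRCh38.p14). Protein-coding genes kept by filterByExpr were tested, 13308 for RNA-seq, 11756 for Ribo-seq and 11708 for TE, and all 10 members passed in each.

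Tests used edgeR 4.0.16 (glmQLFit, robust, TMM, all 5 states in the fit) in R 4.3.3, two-sided, with Benjamini-Hochberg adjustment over all genes tested. There were 7 comparisons for each of mRNA, footprints and TE. No pair of replicates was alike within sampling noise: their chi-square statistics were 1.90 to 120 times the degrees of freedom. Scripts were tested on simulated data. Alternatives were RLE size factors, no filter on low counts, DESeq2 1.42.0, a replicate block, only the states compared, and leaving out each library. Pairs of states within a library type were checked where they had 3 pairs of same-numbered libraries. Each correlation of their deviations was over 0.1 only for cycling and quiescent Ribo-seq (0.15, 0.27 and 0.26), and the blocked count is given there. Between RNA-seq and Ribo-seq of the same state, each was over 0.1 for etoposide (0.13, 0.38 and 0.20) and cycling cells (0.14 and 0.19). The main TE test did not use these pairs. Promoter sequences are RefSeq's (GRCh38.p14). Besides the members, list genes were named where they passed a test, at most 4 a list, by the largest log2 fold change in RNA-seq, and 1 gene that this rule names is not reported here. Patterns alike were given for 3 members of the 7 that were called in 4 RNA-seq comparisons, the most for any member, the tie being settled by the largest absolute log2 fold change. No measured value enters the rule for the members, but the members and all lists were chosen with earlier results of these data known. Intervals and floors cover counting error only where they come from counts.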

Additional observations from a re-analysis of the deposited data

Results flagged for a closer look

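For 3 members the change under thapsigargin differed between the library types by edgeR's interaction test. Treatment, medium, gene list and read mapping differed together there and cannot be told apart. PLOD3 footprints fell while its mRNA did not pass the test, and the difference of the changes was -1.99 on the log2 scale. For LOXL4 it was -1.99, with 1 and 7 footprint counts in the thapsigargin libraries, and for P4HA1 it was -1.49. The search for a library far from the others of its group was not made, because groups held 2 or 3 libraries.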

How the results depend on the processing

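No log2 fold change of a called member changed sign under any alternative, while some that were not called did. Of the members' log2 fold changes that the text prints or calls, over all alternatives, 834 kept their side of the threshold, 93 no longer passed it (71 of them with a library left out) and 9 came to pass it. In a fit of only the states compared, the number of members called in mRNA went from 3 to 5 for etoposide, from 5 to 9 for irradiated and from 3 to 0 for quiescent against cycling cells. In footprints it went from 2 to 9 for etoposide and from 2 to 0 for quiescent against cycling, and from 6 to 3 for etoposide against quiescent cells. In TE it went from 0 to 2 for irradiated against cycling and from 0 to 4 against etoposide cells. Without the thapsigargin libraries, chosen after the data were seen, it went from 5 to 8 in mRNA of irradiated and from 2 to 4 in footprints of quiescent against cycling cells, and without a filter from 2 to 1 in footprints of etoposide against cycling cells.

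Same-numbered libraries deviated together in Ribo-seq of cycling and quiescent cells, but not throughout. Correlations ran from -0.18 to 0.47 in RNA-seq and from -0.19 to 0.27 in Ribo-seq. Between RNA-seq and Ribo-seq of the same state they ran from -0.02 to 0.57. Outside that Ribo-seq comparison the numbers were not taken as pairs, also not in the main TE test. With a replicate block the count went from 2 to 6 in footprints of quiescent against cycling cells, from 0 to 1 for irradiated against quiescent cells, and from 3 to 7 in TE under thapsigargin, and no other count moved by over 1.5 times.

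With a library left out, counts in mRNA ranged from 0 to 5 for quiescent, 1 to 3 for etoposide and 4 to 5 for thapsigargin against cycling, 0 to 6 for irradiated and 4 to 7 for etoposide against quiescent, and 6 to 8 for irradiated against etoposide cells. In footprints they ranged from 2 to 8 for quiescent, 5 to 8 for irradiated, 1 to 2 for etoposide and 9 to 10 for thapsigargin against cycling, 0 to 7 for irradiated and 4 to 7 for etoposide against quiescent, and 6 to 8 for irradiated against etoposide cells. In TE under thapsigargin they ranged from 2 to 3. Where 1 library remained in a state, it was assumed to vary like the others. The cause of these differences was not tested. The thapsigargin footprints rest on 1936976 and 2044900 counts, which limits their precision.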
